A study of Mus musculus with 16 samples.

Results

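The antimicrobial peptides and secreted defence proteins of mouse skin are described here by 10 genes, found in the count files by their symbols among 23282 rows. They were the cathelicidin gene Camp, the beta-defensin genes Defb1, Defb3, Defb4, Defb6 and Defb14, the lipocalin gene Lcn2, the protease inhibitor gene Slpi, the peptidoglycan recognition gene Pglyrp1 and the lectin gene Reg3g. Each symbol matched 1 row, and all 10 rows passed the filter on low counts. The filter needed about 1.03 CPM (counts scaled to a common library total) in 4 libraries. Camp, Reg3g and Defb3 passed it through the DNCB-treated groups, in which they were high: of the 8 libraries without DNCB, 0, 0 and 2 reached that level, against 5, 4 and 7 of the 8 with DNCB. Counts of called genes, counts of genes without overlap and medians that include Camp, Defb3 or Reg3g are therefore descriptions. Pglyrp1 reached it in 3 and 6 libraries, and the other 6 genes in all libraries without DNCB.

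Male C57BL/6N mice of wild-type genotype were bought at 3 weeks of age and adapted for 1 week. The Cont group then ate normal chow, and the other groups ate a diet low in ligands of the aryl hydrocarbon receptor (AhR) for 12 weeks on ligand-free paper bedding, without further treatment in the LowAhR group. Diet and bedding thus changed together. The LowAhR+AD group also received 1% 2,4-dinitrochlorobenzene (DNCB), a hapten that causes contact dermatitis, on the dorsal skin 2 times a week for 10 weeks, starting 2 weeks after the change of diet. The LowAhR+AD+BJ group received the same diet and DNCB, and in addition the herbal decoction Bojungikgi-tang (BJIKT) by gavage at 1 g/kg per day. Whether the Cont and LowAhR mice received the DNCB solvent or a gavage is not given in the sources used here. DNCB was given only to mice on the low AhR ligand diet, so its effect on the normal diet cannot be read from these groups. Whole dorsal skin of 4 mice per group was measured, with 1 library per mouse.

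Antimicrobial peptides are small, mostly cationic proteins that damage bacterial membranes. Keratinocytes release some of them at all times and others after injury or in response to cytokines such as IL-17, IL-22 and IL-1. Cathelicidin is stored by neutrophils and also made by keratinocytes. Lipocalin 2 binds bacterial siderophores and so withholds iron, and SLPI inhibits neutrophil elastase and other serine proteases.

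The 5 beta-defensin genes in the set lie on chromosome 8 of GRCm38, the build that mm10 names. Defb14 (chr8:19194357-19195212), Defb4 (chr8:19198706-19201545), Defb6 (chr8:19225478-19228209) and Defb3 (chr8:19293360-19295291) lie on the plus strand within 100935 bases that hold 6 protein-coding genes, all of them beta-defensins. Defb1 (chr8:21776599-21795185, plus strand) lies 2481308 bases beyond Defb3. Each has 2 exons in the GENCODE annotation. The coding sequences of their annotated transcripts are shown because the family is defined by its cysteines and because the members resemble each other closely enough to bear on how reads are assigned. The codons for cysteine are in capitals.
Defb1: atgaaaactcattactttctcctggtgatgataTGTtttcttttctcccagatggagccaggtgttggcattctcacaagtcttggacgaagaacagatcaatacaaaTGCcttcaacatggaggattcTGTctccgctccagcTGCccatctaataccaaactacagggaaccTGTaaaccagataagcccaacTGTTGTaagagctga
Defb3: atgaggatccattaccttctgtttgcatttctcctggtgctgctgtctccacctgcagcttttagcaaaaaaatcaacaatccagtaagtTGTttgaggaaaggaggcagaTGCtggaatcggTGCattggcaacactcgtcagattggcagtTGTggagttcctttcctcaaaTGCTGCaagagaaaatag
Defb4: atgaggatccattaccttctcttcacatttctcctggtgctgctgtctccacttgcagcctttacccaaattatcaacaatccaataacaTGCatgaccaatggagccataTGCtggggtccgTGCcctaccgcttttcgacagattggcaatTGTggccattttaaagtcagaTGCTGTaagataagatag
Defb6: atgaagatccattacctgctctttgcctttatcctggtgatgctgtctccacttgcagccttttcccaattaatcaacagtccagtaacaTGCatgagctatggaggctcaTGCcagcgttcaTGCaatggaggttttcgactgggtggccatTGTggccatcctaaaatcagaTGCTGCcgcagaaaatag
Defb14: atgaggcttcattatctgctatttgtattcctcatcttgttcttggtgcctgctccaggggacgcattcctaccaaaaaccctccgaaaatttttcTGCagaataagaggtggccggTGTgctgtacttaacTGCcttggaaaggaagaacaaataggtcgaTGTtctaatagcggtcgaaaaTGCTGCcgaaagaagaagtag
The last 6 cysteine codons had the same layout in all 5 genes apart from the second gap, which held 4 codons in Defb1 and Defb14 and 3 codons in Defb3, Defb4 and Defb6. Defb1 has a seventh cysteine codon near its start. In pairwise alignments of the coding sequences, Defb4 and Defb6 were identical at 78.6% of the columns, Defb3 and Defb4 at 76.0%, and Defb3 and Defb6 at 71.9%, while the other pairs were between 47.4% and 57.3%. The longest stretch of identical bases in a pair of transcripts was 33 bases, in Defb3 and Defb4. The read length that the authors state is longer than this stretch, so a full-length read cannot match 2 of these transcripts without a mismatch. Whether reads were shortened, and how reads that match several genes were counted, is not given in the sources used here. Counts of Defb3, Defb4 and Defb6 are uncertain to the extent that shortened or mismatched reads were split.

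The libraries held between 7080508 and 13467477 counts, and every library of the DNCB-treated groups (10614393 or more) was deeper than every library of the other groups (8773876 or fewer). A gene without a count could still have had up to 0.223 to 0.424 CPM, which is 3 counts of the library total and covers counting error only. LowAhR+AD replicate 1 stood apart: 5.25% of the 12793 rows with a median of 20 or more counts were at 0 in it, against at most 2.86% in the other libraries. Values that it moves strongly are given with and without it. The keratinocyte markers were present in all groups, with a summed level of 6853 to 16021 CPM over 11 genes. In bulk skin, fewer cells of a type and less RNA per cell cannot be told apart.

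Levels are given as CPM after scaling with TMM factors. QuantSeq reads a stretch near the end of each messenger RNA, so that a transcript gives about 1 fragment and CPM is not divided by length. Differences between groups are log2 fold changes from edgeR's quasi-likelihood test with all 16 libraries in 1 model, each with its standard error (SE), and p-values were adjusted over the 14854 tested rows with a call at an adjusted p under 0.05. Exact two-sided permutation tests of log2 CPM are given beside them, and 4 libraries against 4 cannot give a p below 0.0286.

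**Figure D1:**
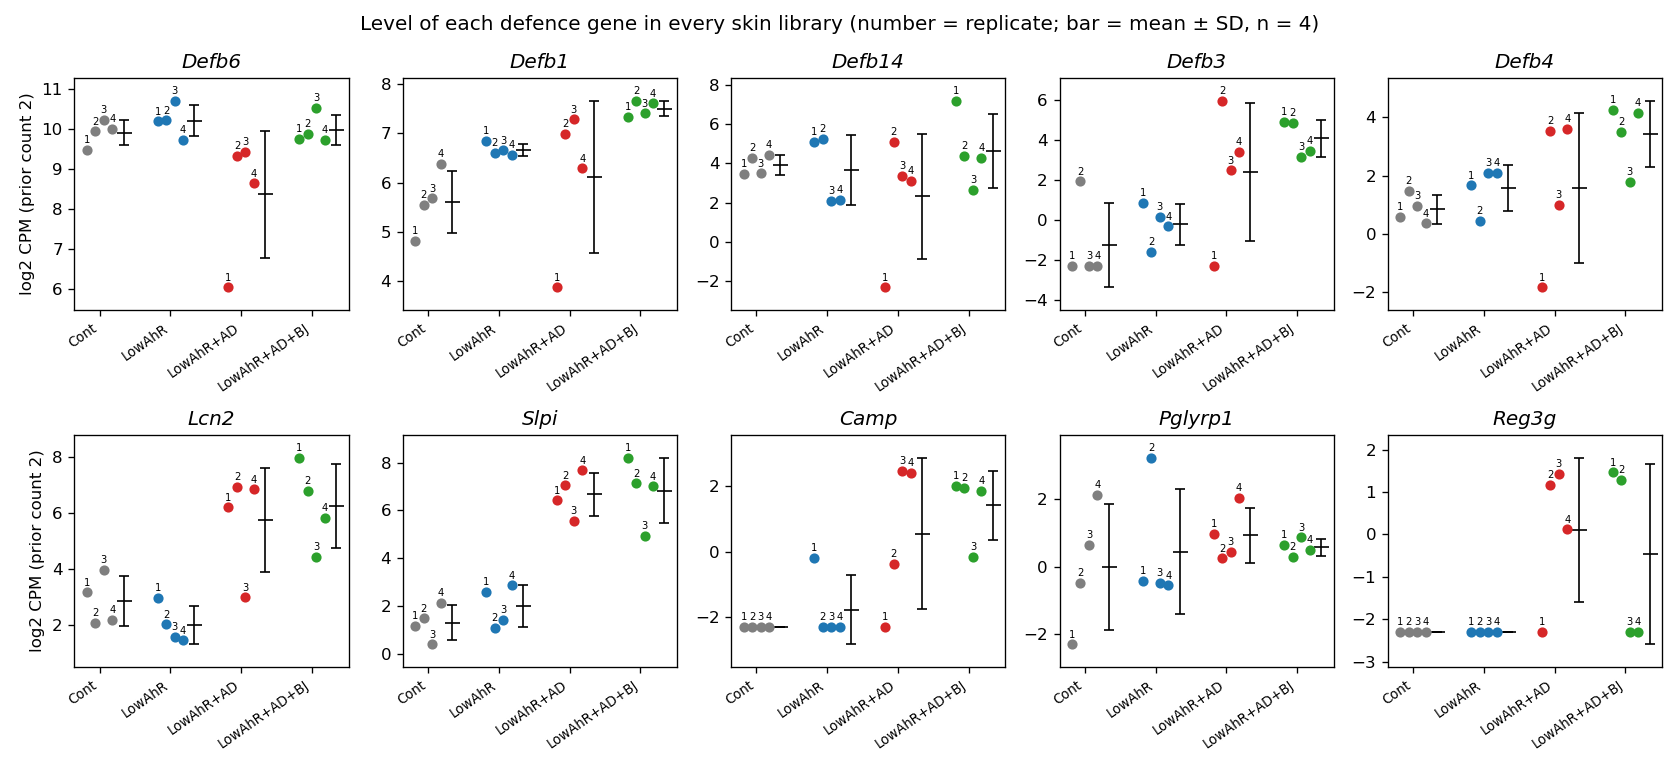
Level of each of the 10 defence genes in the 16 skin libraries, as log2 CPM (vertical axis, prior count of 2) by group (horizontal axis). Points are libraries numbered by replicate, and bars show the mean ± SD of 4 libraries. Slpi and Lcn2 are higher in all LowAhR+AD libraries than in all LowAhR libraries, and Defb6 is lower in all of them, with LowAhR+AD replicate 1 lowest.

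The comparison of LowAhR+AD with LowAhR asks what DNCB changed in the skin of mice on the low AhR ligand diet. Slpi, Lcn2 and Defb3 rose and Defb6 fell, whereas Defb1, Defb4, Defb14, Camp, Pglyrp1 and Reg3g did not pass the test. Thus 4 of the 10 genes were called, Defb3 among them, beside 12.6% of all tested rows. Of the tested rows 6.42% were called higher and 6.21% lower. Over the 10 genes the median of the log2 values was 2.50, beside 0.038 over all tested rows. With Reg3g set at its lower bound it was 1.43. Camp, Defb3 and Reg3g passed the filter through the DNCB-treated groups, so this median and the count of called genes are descriptions. Of the other genes, Slpi, Lcn2 and Defb4 had positive values, and Defb1, Defb6, Defb14 and Pglyrp1 had negative ones.

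Slpi encodes the secretory leukocyte protease inhibitor (chr2:164354070-164389095, minus strand, 4 exons). Its level was 5.82, 1.92, 2.47 and 7.04 CPM in LowAhR replicates 1 to 4 and 85.9, 132.4, 47.0 and 204.1 CPM in LowAhR+AD replicates 1 to 4. All 4 DNCB-treated libraries therefore lay far above all LowAhR libraries, including LowAhR+AD replicate 1. The log2 fold change was 4.76 (SE 0.652, edgeR-adjusted p = 0.000336), which is 27.1-fold, and the exact permutation p was 0.0286. In each of the 8 fits without 1 library Slpi remained called, with log2 fold changes between 4.35 and 5.11.

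Lcn2 encodes lipocalin 2 (chr2:32384633-32388252, minus strand, 6 exons). Its level was 7.58, 3.84, 2.73 and 2.51 CPM in LowAhR replicates 1 to 4 and 73.3, 123.2, 7.70 and 115.2 CPM in LowAhR+AD replicates 1 to 4. The groups did not overlap, but LowAhR+AD replicate 3 lay only just above the highest LowAhR library and apart from the other 3. The log2 fold change was 4.26 (SE 0.813, edgeR-adjusted p = 0.00327), and the exact permutation p was 0.0286. With limma voom the log2 fold change of Lcn2 was 3.81 with an adjusted p of 0.185, so the call was lost there. The groups did not overlap, with LowAhR+AD higher, in 2 of the 10 genes, Slpi and Lcn2, beside 8.92% of all tested rows.

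Defb6 encodes the beta-defensin with the highest count of the 5 in every library. Its level was 1164, 1182, 1661 and 847 CPM in LowAhR replicates 1 to 4 and 65.6, 643, 688 and 396.5 CPM in LowAhR+AD replicates 1 to 4. All LowAhR+AD libraries were below all LowAhR libraries, and replicate 1 was lowest by far. The log2 fold change was −1.44 (SE 0.464, edgeR-adjusted p = 0.0494, exact permutation p = 0.0286). When LowAhR+AD replicate 1 was left out the value was −1.08 and the call remained, with an adjusted p of 0.0233. Of the 8 fits without 1 library, 5 lost the call, namely those without LowAhR replicate 1, 2 or 3 and without LowAhR+AD replicate 2 or 4 (adjusted p up to 0.131 from edgeR). Defb6 was the single member with no overlap and LowAhR+AD lower, beside 9.85% of all tested rows.

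Defb3 encodes an inducible beta-defensin. Its level was 1.62, 0.128, 0.911 and 0.597 CPM in LowAhR replicates 1 to 4 and 0, 62.0, 5.36 and 10.4 CPM in LowAhR+AD replicates 1 to 4. Of the DNCB-treated libraries, 3 lay above all LowAhR libraries and replicate 1 lay below them at 0. The log2 fold change was 4.56 (SE 1.46, edgeR-adjusted p = 0.0478), and the exact permutation test gave p = 0.200. The call depended on single libraries. With LowAhR+AD replicate 2 left out the log2 fold change of Defb3 was 2.68 with an adjusted p of 0.238. Without LowAhR+AD replicate 1 the adjusted p was 0.0118, and the call was lost without any 1 of the LowAhR libraries (adjusted p = 0.0820 to 0.119 from edgeR) and without LowAhR+AD replicate 4 (0.0580).

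The other 3 beta-defensins showed no difference that passed the test, and their LowAhR+AD libraries were spread widely. Defb1, which many epithelia make at all times, had 114.7, 97.0, 100.6 and 94.4 CPM in LowAhR replicates 1 to 4 and 14.5, 126.5, 155.4 and 78.0 CPM in LowAhR+AD replicates 1 to 4. Of the latter, 2 were above and 2 below all LowAhR libraries, and the log2 fold change was −0.12 (SE 0.445, edgeR-adjusted p = 0.894). Its value became 0.24 when LowAhR+AD replicate 1 was left out. Defb4 had 1.15 to 4.06 CPM in LowAhR libraries and 0.0763, 11.4, 1.79 and 12.0 CPM in LowAhR+AD replicates 1 to 4 (log2 fold change 1.04, edgeR-adjusted p = 0.471, and 1.46 with 0.181 when replicate 1 of LowAhR+AD was left out). Defb14 had 4.03 to 38.1 CPM in LowAhR libraries and 0 to 33.8 CPM in LowAhR+AD libraries (log2 fold change −0.62, edgeR-adjusted p = 0.747, and −0.21 with 0.918 when replicate 1 of LowAhR+AD was left out). In both genes LowAhR+AD replicate 1 lay below all LowAhR libraries, and 2 LowAhR+AD libraries lay above all of them in Defb4 and none in Defb14.

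The balance among the beta-defensins differed with these levels. Of the counts of the 5 genes, Defb6 took 88.4% to 93.8% in LowAhR libraries and 73.4% to 81.8% in LowAhR+AD libraries, while Defb1 took 5.68% to 9.93% and 14.4% to 18.1%. These shares did not overlap between the groups, including LowAhR+AD replicate 1. No test was run on the shares.

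The remaining genes were near the lower limit of these libraries. Camp encodes the cathelicidin precursor (chr9:109847379-109849617, minus strand, 4 exons). It had 0.676, 0, 0 and 0 CPM in LowAhR replicates 1 to 4 and 0, 0.574, 5.36 and 5.14 CPM in LowAhR+AD replicates 1 to 4, with a log2 fold change of 3.96 (SE 1.69, edgeR-adjusted p = 0.140, exact permutation p = 0.257). Only 2 of the DNCB-treated libraries exceeded the highest LowAhR library. Reg3g encodes a C-type lectin that binds bacterial peptidoglycan (chr6:78466269-78468872, minus strand, 6 exons). It was at 0 counts in all LowAhR libraries and at 0, 2.05, 2.49 and 0.883 CPM in LowAhR+AD replicates 1 to 4. Its mean was at least 3.53-fold higher than 3 counts per LowAhR library would give, and the adjusted p was 0.106 from edgeR. Pglyrp1 encodes a protein that binds peptidoglycan (chr7:18871331-18890459, plus strand, 3 exons). Its groups overlapped fully, at 0.477 to 9.22 CPM in LowAhR and 0.985 to 3.94 CPM in LowAhR+AD libraries (log2 fold change −0.45, edgeR-adjusted p = 0.849).

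**Figure D2:**
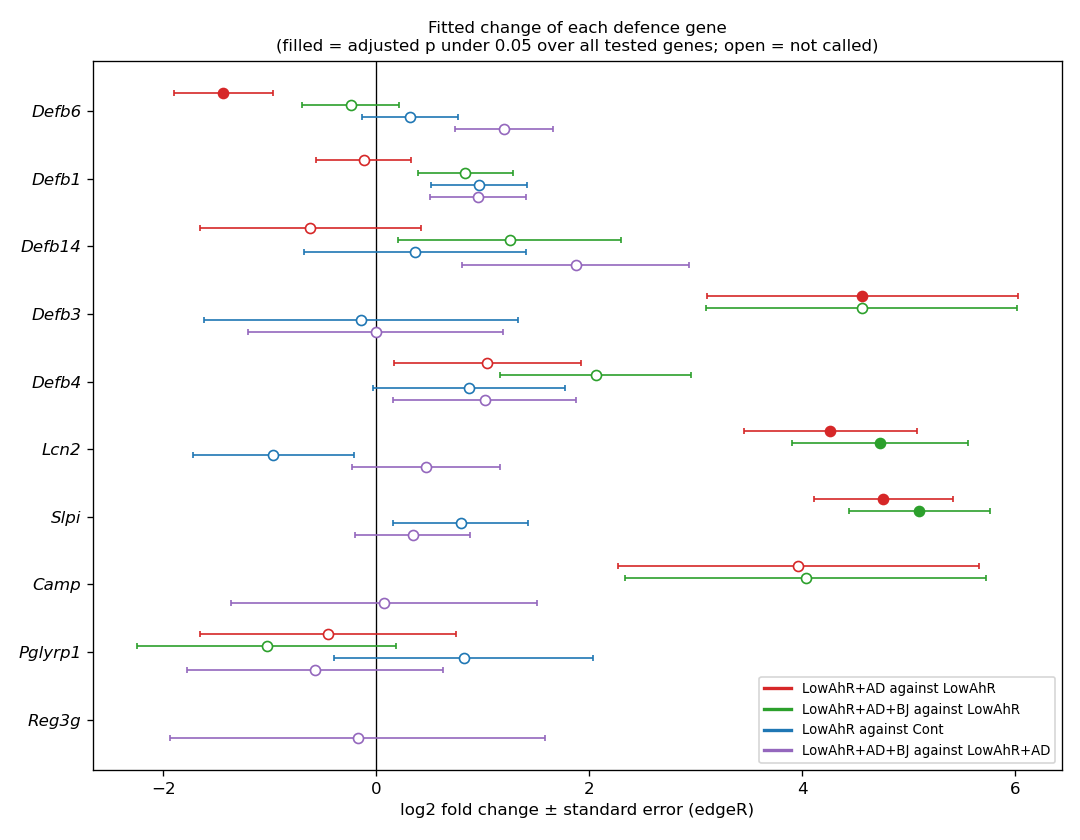
Log2 fold change (horizontal axis) of each of the 10 genes in 4 comparisons of groups, with bars of 1 standard error from edgeR. Filled points are called at an adjusted p under 0.05, and a comparison against a group with no count is left out. Slpi and Lcn2 are called in LowAhR+AD against LowAhR at 4.76 and 4.26, and no point is called in LowAhR against Cont or in LowAhR+AD+BJ against LowAhR+AD.

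The promoters of Lcn2 and Slpi are shown because both genes rose in the same comparison. RefSeq promoters of GRCm38.p6 were found for 7 of the 10 genes: Lcn2, Slpi, Camp, Defb3, Defb6, Pglyrp1 and Reg3g. The 250 bases before the RefSeq start of Lcn2 (chr2:32387740-32387989, minus strand) and of Slpi (chr2:164356508-164356757, minus strand) are given in the direction of the gene. Capitals mark a match to the C/EBP motif TTGCNNAA on either strand.
Lcn2: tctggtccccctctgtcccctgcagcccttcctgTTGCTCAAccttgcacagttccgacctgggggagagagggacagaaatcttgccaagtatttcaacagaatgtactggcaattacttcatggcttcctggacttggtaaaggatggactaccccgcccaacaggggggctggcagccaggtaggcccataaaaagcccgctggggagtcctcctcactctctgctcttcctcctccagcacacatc
Slpi: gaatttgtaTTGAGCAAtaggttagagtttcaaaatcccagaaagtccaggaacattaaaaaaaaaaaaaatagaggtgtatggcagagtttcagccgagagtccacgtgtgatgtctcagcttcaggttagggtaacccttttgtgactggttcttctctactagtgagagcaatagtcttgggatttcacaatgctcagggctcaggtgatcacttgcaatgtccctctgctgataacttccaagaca
The match began 216 bases before the start in Lcn2 (TTGCTCAA) and 241 bases before it in Slpi (TTGAGCAA, on the opposite strand). Defb6 had 2 matches and Defb3 had 1. These related genes share the match TTGCATAA, so they are not independent in the count that follows. In all, 4 of the 7 promoters held the C/EBP letters, beside 10.8% of 32851 RefSeq promoters of the same length, 250 bases before to 50 after the start. The NF-kB motif was found in Pglyrp1 alone (1.6% of all promoters). The letters of the AP-1 motif TGANTCA (7.8% of all promoters), the STAT motif TTCNNNGAA (8.3%) and the AhR core GCGTG (32.4%) were not in these 7 windows. Both strands were searched for each motif, and matches of different motifs were counted independently of any overlap.

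The LowAhR+AD libraries were also compared with Cont, which asks how diet and DNCB together changed these genes. Slpi, Lcn2, Defb3 and Camp rose, and none fell. Defb3 and Camp had passed the filter on low counts only through the DNCB-treated groups. These were 4 of the 10 genes, beside 21.8% of all tested rows called, 12.3% higher and 9.47% lower. The median over the 10 genes was 2.60, or 1.88 with Camp and Reg3g at their lower bounds, beside 0.045 over all tested rows. Reg3g passed the filter in the same way as Camp and Defb3, so the median and the count are descriptions. Slpi had 2.05, 2.58, 1.11 and 4.19 CPM in Cont replicates 1 to 4, all far below the 47.0 to 204.1 CPM of LowAhR+AD libraries (log2 fold change 5.55, SE 0.684, edgeR-adjusted p = 8.41e-05, exact permutation p = 0.0286). Lcn2 had 8.73, 4.01, 15.4 and 4.31 CPM in Cont replicates 1 to 4, and LowAhR+AD replicate 3 fell within that range (log2 fold change 3.30, SE 0.768, edgeR-adjusted p = 0.00569, exact permutation p = 0.0857). With limma voom its adjusted p was 0.152.

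Camp had no count in any Cont library, and its LowAhR+AD mean was at least 7.38-fold higher than 3 counts per Cont library would give (edgeR-adjusted p = 0.0209, exact permutation p = 0.143). With limma voom the adjusted p of Camp was 0.127 and the call was lost. Defb3 had 0, 3.62, 0 and 0 CPM in Cont replicates 1 to 4 and a log2 fold change of 4.42 (SE 1.45, edgeR-adjusted p = 0.0355, exact permutation p = 0.143). Leaving out LowAhR+AD replicate 2 gave 2.53 for Defb3, with an adjusted p of 0.225, and the call was also lost without Cont replicate 1, 3 or 4 (adjusted p = 0.0831 to 0.0864 from edgeR). Defb6 had 707, 980, 1197 and 1017 CPM in Cont replicates 1 to 4, all above the LowAhR+AD libraries, but its log2 fold change of −1.12 (SE 0.460, edgeR-adjusted p = 0.0909, exact permutation p = 0.0286) missed the threshold. It passed the threshold with DESeq2 (adjusted p = 0.0317) and limma voom (adjusted p = 0.0357), and leaving out LowAhR+AD replicate 1 gave −0.77 with an edgeR-adjusted p of 0.0605. The groups did not overlap in Slpi (higher) and Defb6 (lower), beside 12.9% and 11.8% of all tested rows in these directions.

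Without LowAhR+AD replicate 1 the count of called genes against Cont was 6 in place of 4, with Defb1 at a log2 fold change of 1.19 (edgeR-adjusted p = 0.00528) and Defb4 at 2.31 (edgeR-adjusted p = 0.0219). With that library, Defb1 was at 0.84 (adjusted p = 0.199) and Defb4 at 1.91 (adjusted p = 0.145). Without it 3486 of 15028 tested rows were called, beside 3233 of 14854 with it. Camp and Defb3 were among the 6 genes, so that count is a description.

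The comparison of LowAhR with Cont addresses the low AhR ligand diet, given with its bedding and without DNCB. None of the 10 genes was called by edgeR, and the share called among all tested rows was 0%. At an unadjusted p under 0.05 there were 2031 rows, or 13.7%, and 1 of the 10 genes, Defb1. By DESeq2, 493 rows were called and none of the 10 genes. Defb1 had 28.1, 46.6, 51.0 and 83.0 CPM in Cont replicates 1 to 4, below all LowAhR libraries (94.4 to 114.7 CPM). Its log2 fold change was 0.96 (SE 0.451, unadjusted p = 0.0467, edgeR-adjusted p = 0.354, exact permutation p = 0.0286). The groups did not overlap, with LowAhR higher, in 5.68% of all tested rows. The log2 fold changes of Slpi (0.79, adjusted p = 0.647), Lcn2 (−0.97, adjusted p = 0.639) and Defb6 (0.32, adjusted p = 0.831) did not pass edgeR's test either, and their groups overlapped.

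The comparison of LowAhR+AD+BJ with LowAhR+AD addresses the treatment with BJIKT. None of the 10 genes was called by edgeR, beside 0% of all tested rows. At an unadjusted p under 0.05 there were 1405 rows (9.46%) and 2 of the 10 genes, Defb6 and Defb1. DESeq2 called 17 rows and none of the 10 genes. The median log2 value of the 10 genes was 0.40.

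Defb6 had 857, 932, 1472 and 846 CPM in LowAhR+AD+BJ replicates 1 to 4. All lay above the highest LowAhR+AD library (688 CPM). The log2 fold change was 1.20 (SE 0.461, unadjusted p = 0.0183, edgeR-adjusted p = 0.500, exact permutation p = 0.0286). Defb1 had 160.6, 201.9, 169.1 and 194.6 CPM in LowAhR+AD+BJ replicates 1 to 4, which were the 4 highest levels among all 16 libraries. Its log2 fold change was 0.96 (SE 0.448, unadjusted p = 0.0469, edgeR-adjusted p = 0.525, exact permutation p = 0.0286). These were 2 of the 10 genes without overlap between the groups, beside 2.42% of all tested rows with LowAhR+AD+BJ higher. When LowAhR+AD replicate 1 was left out, the values were 0.83 for Defb6 and 0.59 for Defb1 (edgeR-adjusted p = 0.918 and 0.964).

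Slpi and Lcn2 overlapped between the DNCB-treated groups. Slpi had 295.2, 140.1, 30.4 and 128.5 CPM in LowAhR+AD+BJ replicates 1 to 4, which included the highest and the lowest of the 8 DNCB-treated libraries (log2 fold change 0.34, SE 0.543, edgeR-adjusted p = 0.867). Lcn2 had 251.8, 111.1, 21.5 and 56.5 CPM in the same replicates (log2 fold change 0.47, SE 0.692, edgeR-adjusted p = 0.856). A p above the threshold does not show that the levels were alike.

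Defb3 had 29.6, 28.5, 8.71 and 10.7 CPM in LowAhR+AD+BJ replicates 1 to 4, a range within that of LowAhR+AD (log2 fold change −0.0049, SE 1.20, edgeR-adjusted p = 1.00). Defb4 had 19.1, 11.1, 3.27 and 17.7 CPM (log2 fold change 1.02, edgeR-adjusted p = 0.733), and 2 of these libraries were above all LowAhR+AD libraries. Defb14 had 144.8, 20.7, 6.15 and 19.4 CPM (log2 fold change 1.87, edgeR-adjusted p = 0.579), with replicate 1 far above every other library. Camp, at 3.83, 3.67, 0.700 and 3.43 CPM, had a count in each LowAhR+AD+BJ library, whereas Reg3g was at 2.56 and 2.24 CPM in replicates 1 and 2 and at 0 in replicates 3 and 4. Pglyrp1 had 1.02 to 1.63 CPM.

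LowAhR+AD+BJ was also set against LowAhR, the same 4 control libraries as in the comparison of LowAhR+AD with LowAhR. Slpi (log2 fold change 5.10, SE 0.661, edgeR-adjusted p = 0.000504) and Lcn2 (4.73, SE 0.828, edgeR-adjusted p = 0.00360) were called. With limma voom Lcn2 was at 4.32 with an adjusted p of 0.184 and lost its call. These were 2 of the 10 genes, beside 6.77% of all tested rows called and 3.64% called higher. The median was 3.04, or 1.85 with Reg3g at its lower bound, beside 0.008 over all tested rows. Camp, Defb1, Defb3, Lcn2 and Slpi did not overlap between the groups, all with LowAhR+AD+BJ higher, beside 8.91% of tested rows. Camp and Defb3, and Reg3g in the median, passed the filter through the DNCB-treated groups. The count without overlap and the median are therefore descriptions. The value of Defb3 was 4.56 here as well, with an adjusted p of 0.0680, and that of Camp was 4.03 with an adjusted p of 0.175 (edgeR). Defb6 was at −0.24 (adjusted p = 0.816), with 1 library below all LowAhR libraries.

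**Figure D3:**
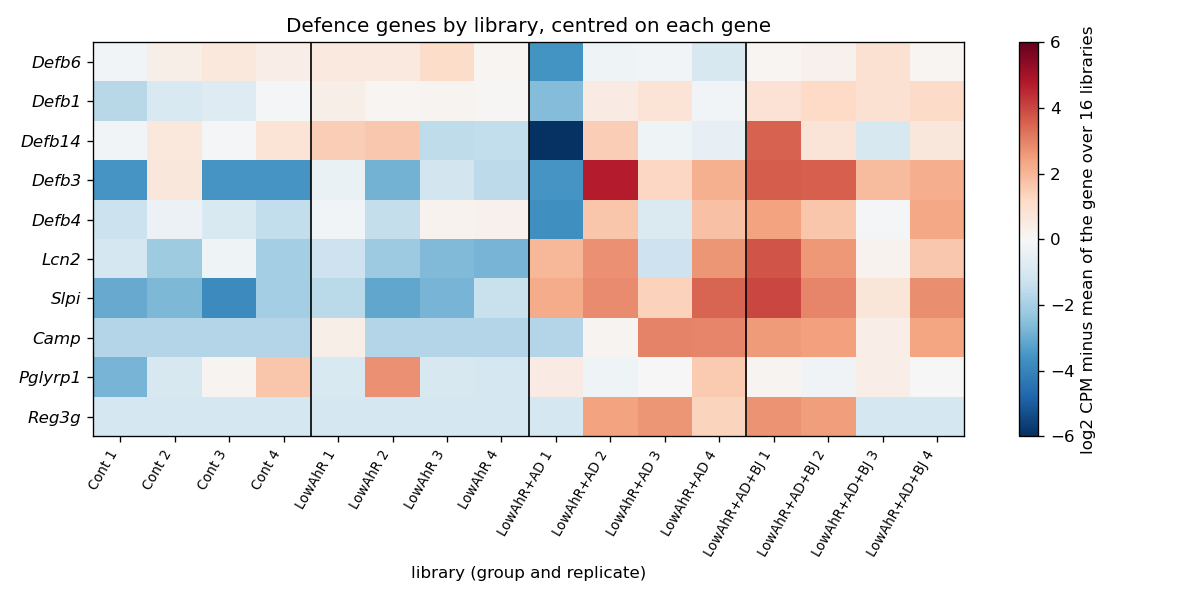
Log2 CPM of the 10 genes in each of the 16 libraries, centred on the mean of each gene over all libraries (colour scale in log2 units, from −6 to 6). Rows are genes and columns are libraries by group and replicate. LowAhR+AD replicate 1 is low in all 5 beta-defensins while it is high in Slpi and Lcn2.

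Within the DNCB-treated mice the genes did not move as one. LowAhR+AD replicate 1 ranked lowest of the 8 DNCB-treated libraries in all 5 beta-defensins and in Camp, and shared the lowest place in Reg3g, at 0 counts, with LowAhR+AD+BJ replicates 3 and 4, but was 5 of 8 from the top in Lcn2, 6 of 8 in Slpi and 2 of 8 in Pglyrp1. LowAhR+AD+BJ replicate 1 ranked highest in Slpi, Lcn2, Defb4, Defb14 and Reg3g. These are ranks of single mice, with no test.

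By order of the group means, Slpi stood at 2.49 ± 1.29 CPM (SD, n = 4) in Cont, 4.31 ± 2.51 in LowAhR, 117.4 ± 67.5 in LowAhR+AD and 148.5 ± 109.4 in LowAhR+AD+BJ, and the last 2 did not differ beyond their spread. Lcn2 stood at 4.16 ± 2.35 CPM in LowAhR, 8.12 ± 5.33 in Cont, 79.8 ± 52.8 in LowAhR+AD and 110.2 ± 101.3 in LowAhR+AD+BJ, where the first 2 and the last 2 overlapped. The means of Defb1 ran from 52.2 ± 22.8 CPM in Cont through 93.6 ± 61.7 in LowAhR+AD and 101.7 ± 9.05 in LowAhR to 181.6 ± 19.8 in LowAhR+AD+BJ, with the middle groups overlapping. Defb6 was lowest in LowAhR+AD at 448 ± 285 CPM, and the means of 975 ± 202.5 in Cont, 1027 ± 299.5 in LowAhR+AD+BJ and 1214 ± 335.5 in LowAhR overlapped.

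Other secreted defence proteins of skin formed a list of 31 genes, of which 19 were tested. In LowAhR+AD against LowAhR 4 rose and 2 fell, against Cont 8 rose and 1 fell, and in LowAhR+AD+BJ against LowAhR 6 rose and none fell. Over all tested rows the shares called higher and lower were 6.42% and 6.21%, then 12.3% and 9.47%, and the share called higher in the last comparison was 3.64%. S100a7a and Ptx3 had at most 0.370 and 0 CPM in Cont libraries, under the level of the filter, and passed it through the other groups. The count against Cont is therefore a description. The median change of the 19 tested genes between LowAhR and LowAhR+AD was −0.36 on the log2 scale. S100a8 and S100a9, the subunits of calprotectin, which binds zinc and manganese, rose from 30.6 ± 9.21 and 24.9 ± 11.9 CPM in LowAhR to 597.5 ± 517 and 559.8 ± 478 CPM in LowAhR+AD (SD, n = 4). Their log2 fold changes were 4.29 and 4.49 (edgeR-adjusted p = 0.00107 and 0.000773). Chil1, a chitinase-like protein without enzymatic activity, changed by 4.06 and Wfdc12, a relative of Slpi, by 3.06 (edgeR-adjusted p = 0.00138 and 0.00501). The genes that fell were Lyz1, a lysozyme (−1.95), and Rnase4, a secreted ribonuclease (−1.38), and they were named after their values were seen.

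The cytokines, receptors and sensors that induce these genes formed a list of 27, of which 21 were tested, with 1 higher and 2 lower in LowAhR+AD against LowAhR, beside 6.42% and 6.21% of all tested rows, and the median was −0.14. Il17a, Il17f, Il17c and Il22 had 0 counts in every library. Il1b rose from 9.62 ± 7.57 to 44.2 ± 26.5 CPM (log2 fold change 2.20, edgeR-adjusted p = 0.0245). Il22ra1, a chain of the IL-22 receptor, fell from 27.9 ± 10.3 to 10.2 ± 3.78 CPM (−1.46, edgeR-adjusted p = 0.0181). Il22ra2, a soluble decoy receptor for IL-22, fell from 12.99 ± 3.26 to 0.389 ± 0.777 CPM (−5.01, edgeR-adjusted p = 0.0236). It had no count in 3 LowAhR+AD libraries and passed the filter through the groups without DNCB.

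Of 16 transcription factors of the response, all tested, 3 rose and 1 fell in the same comparison, with the same shares over all tested rows and a median of 0.25. Vdr, the vitamin D receptor, changed by 2.25, Hif1a by 1.26 and Cebpb by 1.04 (edgeR-adjusted p = 0.000848, 0.00932 and 0.0432), while Cebpd changed by −1.27 (edgeR-adjusted p = 0.0158). Cebpb and Cebpd encode members of the C/EBP family. Of 21 processing enzymes, partners and receptors, 15 were tested and 2 were called higher, Klk6 and Fpr1, beside 6.42% of all tested rows, with a median of 0.12. Fpr1, a formyl peptide receptor, had no count in any LowAhR library and passed the filter through the DNCB-treated groups. Klk6, a secreted kallikrein protease, went from 83.1 ± 31.0 to 761.5 ± 638.5 CPM (3.20, edgeR-adjusted p = 0.00181). Klk5 and Klk7, kallikreins that process cathelicidin, were at 90.6 and 2358 CPM in LowAhR and at 79.3 and 4971 CPM in LowAhR+AD, with log2 fold changes that were not called. Fpr2, a receptor for cathelicidin peptides, was at 0.833 CPM in LowAhR and 8.07 CPM in LowAhR+AD (log2 fold change 3.24, edgeR-adjusted p = 0.124). Slc22a17, a receptor for lipocalin 2, was at 5.88 and 5.38 CPM. In LowAhR against Cont and in LowAhR+AD+BJ against LowAhR+AD, none of the tested genes of these 4 lists was called.

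Lcn2 and Camp are also neutrophil genes, so neutrophil markers are given beside them. Of 15 markers found, 8 were tested and 3 were called higher in LowAhR+AD against LowAhR, beside 6.42% of all tested rows. They were Mmp8, Cxcr2 and Fpr1, named after their values were seen, of which Fpr1 was at 0 in all LowAhR libraries. Cxcr2 and Fpr1 passed the filter through the DNCB-treated groups. They reached its level in 2 and 0 libraries without DNCB, and in 7 and 6 with it. The count of 3 is therefore a description. The summed level of the 15 ranged over 109 to 256 CPM in Cont, 279.7 to 737 in LowAhR, 188 to 1334 in LowAhR+AD and 259 to 1014 in LowAhR+AD+BJ, and most of it came from 1 gene, Hp (haptoglobin), with 93.3 to 1207 CPM. Without Hp the sum of the other 14 was 15.5 to 22.8 CPM in Cont, 19.8 to 26.2 in LowAhR, 24.4 to 126.7 in LowAhR+AD and 25.9 to 92.5 in LowAhR+AD+BJ.

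Among the granule proteins, Mmp8 was at 0 to 3.25 CPM in LowAhR and 5.65 to 38.8 CPM in LowAhR+AD libraries, and Mmp9 at 5.01 to 18.0 and 6.48 to 41.3 CPM. The highest library of any group had 7.16 CPM of Prtn3, 7.06 of Ctsg, 6.06 of Ngp (in LowAhR+AD), 2.12 of Mpo, 1.30 of Elane and 1.01 of Ltf (in LowAhR+AD), and each of these 6 was at 0 in at least 1 library of every group. Itgb2l had no count in any library. In LowAhR+AD replicates 1 to 4 the sum without Hp was 24.4, 43.7, 68.0 and 126.7 CPM. The part of neutrophils in these results was not tested.

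Markers of other tissues differed between these groups as well. In LowAhR+AD against LowAhR, 12 of 12 skeletal muscle markers and 9 of 10 adipocyte markers fell, beside 6.21% of all tested rows, with muscle sums of 11972 to 26328 CPM in LowAhR and 528 to 4487 CPM in LowAhR+AD. Keratinocyte sums were 6853 to 8668 CPM and 9952 to 16021 CPM, with 4 of 11 markers higher (Krt5, Krt14, Dsg3 and Itgb4) and 1 lower (Col17a1). Of 13 hair follicle markers 1 (Hoxc13) was higher against LowAhR and 12 against Cont. Over all tested rows 6.42% and 12.3% were called higher in these 2 comparisons. Of the sebaceous markers 2 of 8 (Scd1 and Awat2) and of the T cell markers 2 of 8 (Cd3e and Cd3g) were lower against LowAhR, and none of 10 macrophage markers was called. These markers were named after their values were seen. Cd3e and Cd3g reached at most 0.16 and 0.855 CPM in LowAhR+AD libraries, under the level of the filter, and passed it through the other groups. The part of tissue makeup in the fall of Defb6 and in the rise of Slpi, Lcn2 and Defb3 was not tested.

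**Figure D4:**
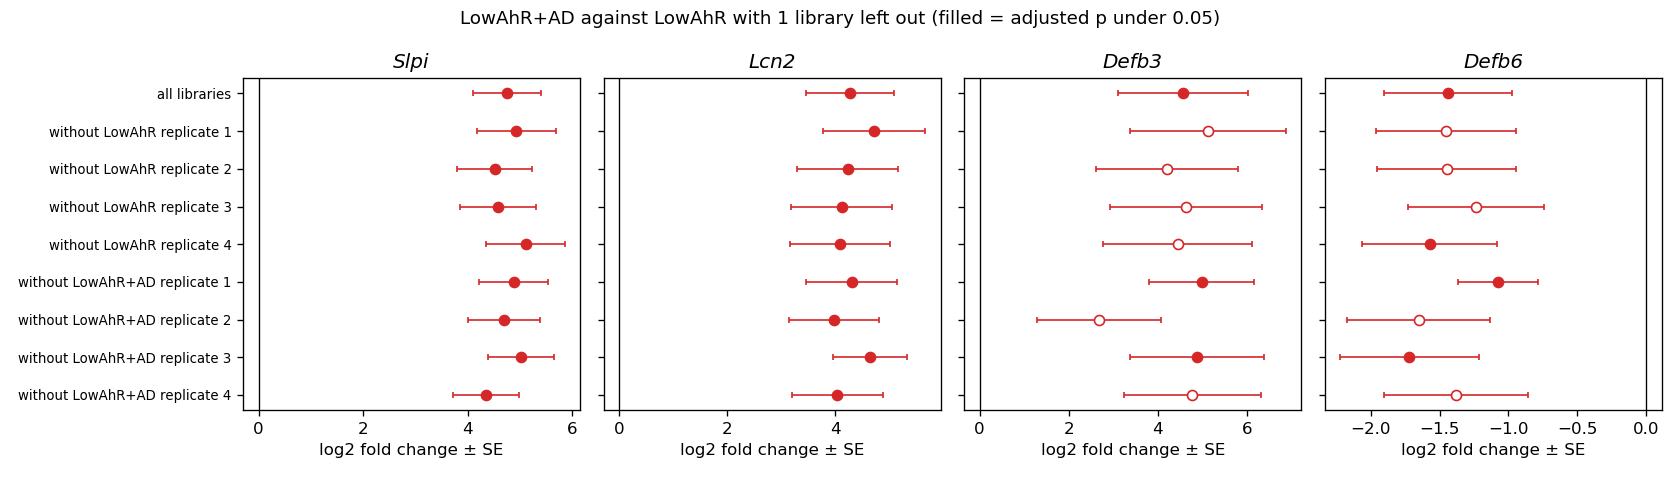
Log2 fold change (axis in log2 units) of Slpi, Lcn2, Defb3 and Defb6 in LowAhR+AD against LowAhR with all libraries and with each of the 8 libraries left out, with bars of 1 standard error and filled points for an adjusted p under 0.05. Slpi stays between 4.35 and 5.11 and Lcn2 between 3.98 and 4.72, and Defb3 is lowest, at 2.68, without LowAhR+AD replicate 2.

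The rows most like a gene in their pattern over the 16 libraries were found by the root mean square difference of centred log2 CPM, as a description. For Slpi they were Krt6a (0.87), a keratin of wounded epidermis, Sprr1b (0.87), a cornified envelope protein, and Upp1 (0.94), against a median of 2.79 over all tested rows. For Lcn2 they included Gsta4 (0.83) and Nrg1 (0.93), against 2.27. For Defb3 they were the chemokine gene Ppbp (1.08), Gsdmc (1.24) and S100a9 (1.35), against 2.86. Defb6 was nearest to Mme (0.38), Wwtr1 (0.39) and Gpr137b (0.42), against 1.26, Defb1 to Gm15421, Dynlt1f and C330021F23Rik (0.39 each), against 1.25, and Defb14 to Ppp4c (0.87), Sptssa (0.89) and Ccl2 (0.97), against 2.12. The differences include those between groups as well as those between mice of a group.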

How the data were processed

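Total RNA of mouse dorsal skin, 4 mice per group, was made into QuantSeq libraries and sequenced from a single end on a NextSeq 500. The authors deposited raw read counts per gene symbol for each library, without normalization. The submitters' processing notes name Bowtie2, bedtools and mm10, and their versions are not given in the sources used here. Molecular identifiers and the treatment of reads that match several genes are not given either. Groups and replicate numbers came from the sample titles.

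Tests used edgeR 4.0.16 under R 4.3.3. Rows were kept by filterByExpr (minimum count 10, minimum total count 15), which left 14854 of 23282 rows, scaled by TMM (factors 0.892 to 1.157) and tested by the quasi-likelihood method with 16 libraries in 1 model and Benjamini-Hochberg adjustment over all kept rows. A gene was called at an adjusted p under 0.05. Log2 CPM used a prior count of 2. The standard error is the log2 fold change divided by the square root of the test statistic. The fits were tested on simulated data first. Replicates of a group differed by far more than sampling noise (chi-square per degree of freedom 16.5 to 294.9), and each library counted as 1 replicate. Replicates are separate mice. Depth is in the text, and intervals from counts cover counting error only.

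The 10 genes and all gene lists were chosen with earlier results of these data known. From the lists, up to 4 called genes with the largest changes and a mean of at least 10 CPM in 1 group were named, with receptors, proteases or inducers of the 10 genes. For genes of at least 10 CPM, the 3 rows nearest in pattern were named, of which 1 is not reported here. Positions and coding sequences came from GENCODE on GRCm38, and promoters from RefSeq. Alternatives were 2 other scalings (RLE, upper quartile), DESeq2 1.42.0, limma 3.58.1 with voom, 2 other filters, a replicate block, a model of only the libraries compared, other library sizes, and each library left out.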

Additional observations from a re-analysis of the deposited data

Results flagged for a closer look

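Of 37 groups of 4 libraries of the 10 genes, 4 held a library that stood far from the other 3 in log2 CPM, by the share of the group's range that separates it from its nearest neighbour (above the 95% critical value of Dixon's test). Chance alone would give about 1 in 20 groups, but this rate does not hold where libraries are tied at 0 counts. With 3 libraries at 0 the share is 1.000 whatever count the remaining library has, as in Camp in LowAhR and Defb3 in Cont. Camp was highest in LowAhR replicate 1, the only LowAhR library with a count (share 1.000), and lowest in LowAhR+AD+BJ replicate 3, below 1 CPM (share 0.930). Defb3 was highest in Cont replicate 2, at 3.62 CPM against 0 in the other 3 (share 1.000). Pglyrp1 was highest in LowAhR replicate 2, at 9.22 CPM against 0.477 to 0.541 CPM in the other 3 (share 0.966). With that library the log2 fold change of Pglyrp1 in LowAhR+AD against LowAhR was −0.45, and without it the value was 1.91.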

How the results depend on the processing

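The number of the 10 genes called in LowAhR+AD against LowAhR was 4. It was 2 with limma voom, 2 with at least 10 counts in every library (which left 3 of the 10 genes in the test) and 2 with only the 8 libraries compared, and it ranged from 2 to 4 over the fits without 1 library. These 3 alternatives called 2092 of 14854, 2008 of 10224 and 765 of 13946 tested rows, beside 1876 of 14854 in the main fit. The fits without 1 library called 1128 to 2015 rows. Against Cont 4 of the 10 genes were called, 2, 1 and 2 under the same 3 alternatives, and 3 to 6 without 1 library. The rows called were 3233 of 14854 in the main fit and 3206 of 14854, 2937 of 10224 and 2351 of 13844 under these alternatives. Without 1 library they were 2459 to 3486. In LowAhR+AD+BJ against LowAhR 2 of the 10 genes were called in the main fit, and 1, 1 and 4 under these alternatives. The rows called were 1005 of 14854 in the main fit, and then 1005 of 14854, 1234 of 10224 and 1206 of 13931. The number of the 10 genes called was 0 in LowAhR against Cont and in LowAhR+AD+BJ against LowAhR+AD under every alternative. The cause of these shifts was not tested, except that the stricter filter tested fewer genes. DESeq2 called 2673 rows in LowAhR+AD against LowAhR where edgeR called 1876, and a model of only the 8 libraries called 765. Library sizes without hair follicle, muscle and fat genes gave the values of the 10 genes unchanged to 3 decimals, because TMM rescales the totals, so that alternative was no test of tissue makeup.

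Slpi remained called in LowAhR+AD against LowAhR under all alternatives that gave it a value, and Lcn2 under all but limma voom. Defb3 lost its call with upper-quartile factors (adjusted p = 0.0511), DESeq2 (0.0524), limma voom (0.556), the replicate block (0.141) and only the 8 libraries (0.0924), and Defb6 with no filter (0.0512) and only the 8 libraries (0.158).

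No labels tie replicate numbers to cages or days. Libraries with the same number correlated at −0.055 to 0.167 in their deviations from the group means, and 7 of 16 libraries correlated best with their own number. Each number occurs once in every group, so some best matches of that kind arise without any pairing. No test was run on that count. With the replicate number as a block, 3 of the 10 genes were called in LowAhR+AD against LowAhR, 5 in LowAhR+AD against Cont and 2 in LowAhR+AD+BJ against LowAhR, and 0 in the other 2 comparisons. In the same order the block called 1689, 2990 and 947 of 14854 tested rows, and 0 in the other 2 comparisons. Counts that include Camp or Defb3 are descriptions here too. Beside the loss of Defb3 against LowAhR, the block brought Defb6 in LowAhR+AD against Cont past the threshold (adjusted p = 0.0417). The block gave log2 fold changes of opposite sign for Defb3 and Defb14 in LowAhR against Cont (1.42 and −0.35) and for Defb3 and Camp in LowAhR+AD+BJ against LowAhR+AD (0.84 and −0.008).

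Other changes of sign, all in values that were not called, were Defb3 in LowAhR+AD+BJ against LowAhR+AD with RLE (0.017), upper-quartile (0.025), DESeq2 (0.018) and limma voom (2.38), and with limma voom Defb4 and Pglyrp1 in LowAhR+AD against LowAhR (−0.35 and 0.58), Defb3 and Defb14 in LowAhR against Cont (1.98 and −0.33) and Pglyrp1 in LowAhR+AD+BJ against LowAhR (0.23). Leaving out 1 library gave changes of sign with these ranges. In LowAhR+AD+BJ against LowAhR+AD they were −0.34 to 0.61 for Camp, −0.44 to 1.88 for Defb3, −0.34 to 0.81 for Lcn2, −0.24 to 0.75 for Slpi, −0.80 to 0.007 for Pglyrp1 and −0.86 to 0.29 for Reg3g. In LowAhR against Cont they were −0.15 to 0.71 for Defb14, −0.70 to 6.04 for Defb3 and −1.54 to 2.08 for Pglyrp1. In LowAhR+AD against LowAhR they were −0.48 to 0.24 for Defb1 and −1.04 to 1.91 for Pglyrp1, against Cont −1.33 to 0.16 for Defb14 and −0.22 to 1.63 for Pglyrp1, and in LowAhR+AD+BJ against LowAhR −0.38 to 1.77 for Defb14 and −1.38 to 1.33 for Pglyrp1. Depth limited Camp, Reg3g and Pglyrp1, which were at or near 0 counts in many libraries.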
